A study of Mus musculus with 24 samples.

Results

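The lamina propria (LP) is the connective tissue beneath the gut epithelium, where macrophages clear microbes and dying cells. The 6 libraries described here, of the 24 in the series, hold bulk RNA-seq of macrophages sorted from mouse colon LP. They were chosen by their labels: 3 libraries of cells with little MHC class II on the surface (MHCIIlow) and 3 of cells with much of it (MHCIIhi). Both groups were sorted as F4/80hi CD11b+ cells, after removal of CD11chi MHCIIhi dendritic cells, and were then split by the MHC class II gate. That removal takes only cells with much MHC class II, so the limit on CD11c bears on the MHCIIhi group. All 6 came from wild-type C57BL/6J colon (strain C57/BL in the labels) of mice of both sexes, and each library was made from the pooled tissue of several mice, sorted in 3 independent experiments. The labels call this LP healthy, while the methods of the study describe dextran sodium sulphate (DSS), a colitis-inducing agent, for control mice as well, so whether these donors had DSS was not settled. The pools are numbered as donors, II, III and IV for MHCIIlow and III, IV and V for MHCIIhi, so the numbers III and IV occur in both groups. Whether libraries with the same number came from the same mice is not given in the sources used here. The comparison tissue in the last paragraphs is the same pair of sorted populations, 3 libraries each, from colon tumours of DSS-treated ApcMin/+ mice, which form intestinal adenomas. The p-values below measure the spread between libraries of pooled mice, estimated over all 8 sorted groups of the series, and not that between single mice.

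MHC class II molecules carry peptides from engulfed material to the cell surface, where CD4+ T cells read them. Their genes share a short promoter module, the X and Y boxes, and are switched on by the coactivator CIITA. In the gut wall most macrophages are replaced from blood monocytes, which gain MHC class II as they mature. A smaller population is long-lived, lies beside vessels, nerves and muscle, and is known for genes such as Lyve1, Timd4, Folr2 and Cd163. The question put to these libraries was which genes differed between macrophages with little and with much MHC class II in the same tissue.

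The libraries held 27.7 to 41.7 M reads in genes in MHCIIhi and 12.8 to 31.3 M in MHCIIlow. The library size behind the deposited values was 1.133 to 1.176 times these reads in MHCIIhi and 1.324 to 1.4 times in MHCIIlow. Genes of the mitochondrial genome took 1.03% to 1.27% of the reads in MHCIIhi and 2.25% to 4.82% in MHCIIlow. The libraries of MHCIIlow varied more, with a median SD over genes of 0.369 on the log2 scale against 0.253 in MHCIIhi. Among the called genes, MHCIIlow library II was most often the farthest of its group from MHCIIhi. This was so for 171 of the 274 genes called higher in MHCIIlow (62.4%) and for 420 of the 717 called higher in MHCIIhi (58.6%). These genes were called from the same libraries, so such counts favour an extreme library. Over all tested genes library II did not stand apart. Its correlation with the mean of the other MHCIIlow libraries was 0.906, beside 0.9 for III and 0.909 for IV. Results that rest on library II are given with and without it. All values below are log2 RPKM, the deposited unit (a read count divided by the length of the gene and the size of the library, then taken to log2), and are given in the order MHCIIhi III, IV, V and then MHCIIlow II, III, IV. A fold change is the MHCIIlow mean minus the MHCIIhi mean on that scale, so it is below 0 where MHCIIhi was higher. A gene was called where limma gave a Benjamini-Hochberg adjusted p under 0.05 over the 12878 genes tested, in 1 fit of all 24 libraries. Where a range or an upper value is given for library omissions, it covers the fits with 1 of the 6 LP libraries left out.

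Genes of the sorted proteins were measured first. Adgre1, which encodes F4/80, was high in every library, at 8.72, 8.80 and 8.84 in MHCIIhi and 7.97, 7.95 and 8.11 in MHCIIlow. Its fold change was -0.78 ± 0.19 (SE) with an adjusted p of 0.0141 in limma, which became 0.0592 with the pool number as a block and 0.0508 at most with 1 library left out (over 0.05 without MHCIIhi IV, MHCIIhi V or MHCIIlow II). Itgam, the gene of CD11b, lay between 5.76 and 6.34 in all 6 and was not called (adjusted p = 0.223), but 68.7% of its exon bases lie in an overlapping gene model on the same strand. Ptprc, the gene of CD45, was 1.59-fold higher in MHCIIhi, at 5.54 to 5.60 against 4.70 to 5.10 (adjusted p = 0.00289). Ly6c2, a mark of fresh monocytes, was at -1.59 to -0.89 and -3.25 to -2.0, and Ly6g, the neutrophil mark, had no read in any of the 6. The cells therefore carried the macrophage genes they were sorted for, with low values for Ly6c2 and no read of Ly6g. Other monocyte genes were higher: Ccr2 and Ms4a4c, given below, had mean RPKM of 14.2 and 22.4 in MHCIIhi and 1.80 and 3.26 in MHCIIlow.

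The genes of the MHC class II molecules showed the widest separation of any list. Because the cells were sorted on this protein, the values below check the sort at the RNA level and are no independent finding. H2-Eb1, the beta chain of I-E (chr17:34305867-34316674, plus strand, GRCm38), was at 12.88, 13.12 and 13.20 in MHCIIhi and at 6.06, 9.22 and 8.46 in MHCIIlow. H2-Ab1, the beta chain of I-A (chr17:34257689-34269419, plus strand), was at 13.11, 13.24 and 13.36 against 6.67, 9.48 and 8.68. H2-Aa, the alpha chain of I-A (chr17:34282744-34287823, minus strand), was at 12.03, 12.28 and 12.47 against 5.98, 8.77 and 8.17. The MHCIIhi libraries lay close together, whereas MHCIIlow library II lay below the other two of its group for all 3 genes, and the groups did not overlap. The folds were 35.5 for H2-Eb1 (fold change -5.15 ± 0.64, adjusted p = 3.87e-05), 31.1 for H2-Ab1 (-4.96 ± 0.60, adjusted p = 3.07e-05) and 24.7 for H2-Aa (-4.62 ± 0.61, adjusted p = 6.92e-05). All 3 kept the call under every alternative run, each library left out in turn included, which is called below to have held throughout. In a bulk library, fewer cells with a transcript and less of it per cell cannot be told apart.

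Class II promoters are shown here because these are the genes on which the populations were separated and because the letters of their shared module can be read in them. The stretches run from 130 to 31 bases before the RefSeq transcription start (GRCm38.p6), are written on the strand of the gene, and carry in capitals the Y box letters GATTGG and the X box letters AACNGATG where a search on both strands found them.
H2-Eb1, chr17:34305737-34305836, plus strand: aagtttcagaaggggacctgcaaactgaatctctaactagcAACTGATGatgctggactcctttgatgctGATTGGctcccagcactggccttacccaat
H2-DMb1, chr17:34153061-34153160, plus strand: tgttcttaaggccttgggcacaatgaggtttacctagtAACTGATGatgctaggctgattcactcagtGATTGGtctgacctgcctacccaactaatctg
H2-DMb2, chr17:34145119-34145218, plus strand: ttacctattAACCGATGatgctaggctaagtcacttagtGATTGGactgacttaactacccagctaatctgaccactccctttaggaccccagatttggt
H2-Aa, chr17:34287854-34287953, minus strand: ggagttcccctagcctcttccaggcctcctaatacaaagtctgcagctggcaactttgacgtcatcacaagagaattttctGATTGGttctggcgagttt
H2-Oa, chr17:34092249-34092348, plus strand: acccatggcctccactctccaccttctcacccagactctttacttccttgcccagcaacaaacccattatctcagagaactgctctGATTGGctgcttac
Only called class II list genes with GATTGG inside this window were printed, so each stretch carries the Y box letters by that choice. The called genes H2-DMa, Ctss and Lgmn had a promoter entry but no such letters in the window. H2-DMa had them elsewhere in the 250 bases before the start, and Ctss and Lgmn did not. Of the printed stretches, the first 3 carry both sets of letters in the same order and the last 2 only the Y box letters. Counted by gene over the 250 bases before the start, GATTGG was in 8 of the 11 class II list genes with a promoter entry and AACNGATG in 5. Counted by promoter, these letters were in 14.6% and 1.98% of all 32851 promoters. By gene again, the shares among all genes called higher in MHCIIhi were 23.1% and 2.82%, beside 21.4% and 1.81% of the 9067 tested genes with a promoter. A match is a description of letters. H2-Ab1, Cd74 and Ciita had no entry.

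The rest of the class II list went the same way. The list held 14 tested genes, of which 11 were called higher in MHCIIhi and 0 higher in MHCIIlow, with a median fold change of -3.61, and the groups did not overlap for any of the 14. Across all tested genes 5.57% were called higher in MHCIIhi and 17.9% had all 3 MHCIIhi libraries above all 3 of MHCIIlow, and the median was -0.03. Cd74, the invariant chain that escorts class II molecules through the cell, was at 14.17, 14.30 and 14.29 against 9.33, 11.06 and 10.56 (15.3-fold, adjusted p = 3.04e-05). H2-DMb1 and H2-DMa, the subunits of the peptide exchange factor H2-M, were at 8.08 to 8.31 against 4.18 to 5.38 (9.73-fold, adjusted p = 1.02e-05) and at 7.81 to 8.24 against 4.64 to 5.86 (6.49-fold, adjusted p = 0.000101). Both were picked out for naming after their values were seen, and 22.3% of the 51-base stretches of H2-DMb1 also occur in its neighbour H2-DMb2. Ciita (chr16:10480059-10528418), the coactivator itself, was at 3.96, 3.70 and 3.20 against 0.84, 1.33 and 0.45, a 6.70-fold difference (adjusted p = 6.8e-05). H2-Oa, a subunit of the H2-O modulator of H2-M, had 192 to 303 reads in each MHCIIhi library and 0 to 6 in each MHCIIlow library (adjusted p = 0.000503), and 22.8% of its exon bases lie opposite another gene. The call of H2-Oa was lost with only the 6 LP libraries in the fit (adjusted p = 0.0725). H2-DMb2 (4.89 to 5.06 against -0.21 to 0.76) had an adjusted p of 0.0278 that reached 0.121 with the pool block and 0.0588 to 0.0934 with any single library left out. H2-Ob (3.46 to 3.76 against 0.06 to 0.62) and Ifi30 (7.72 to 8.15 against 6.97 to 7.51), a lysosomal thiol reductase, were not called, with adjusted p of 0.125 and 0.180. The proteases Ctss (-0.65, adjusted p = 0.0447) and Lgmn (-0.71, adjusted p = 0.00624), which trim the invariant chain and antigens and were named after their values were seen, were 1.57-fold and 1.64-fold higher in MHCIIhi. Ctss lost the call with any 1 library left out (0.0858 to 0.121) and with the block (0.054), and both lost it with only the 6 LP libraries (0.101 and 0.0574) and after quantile normalization. The plot of class II genes by library shows the gap for the chains and chaperones and the short distance for the proteases.

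**Figure D1:**
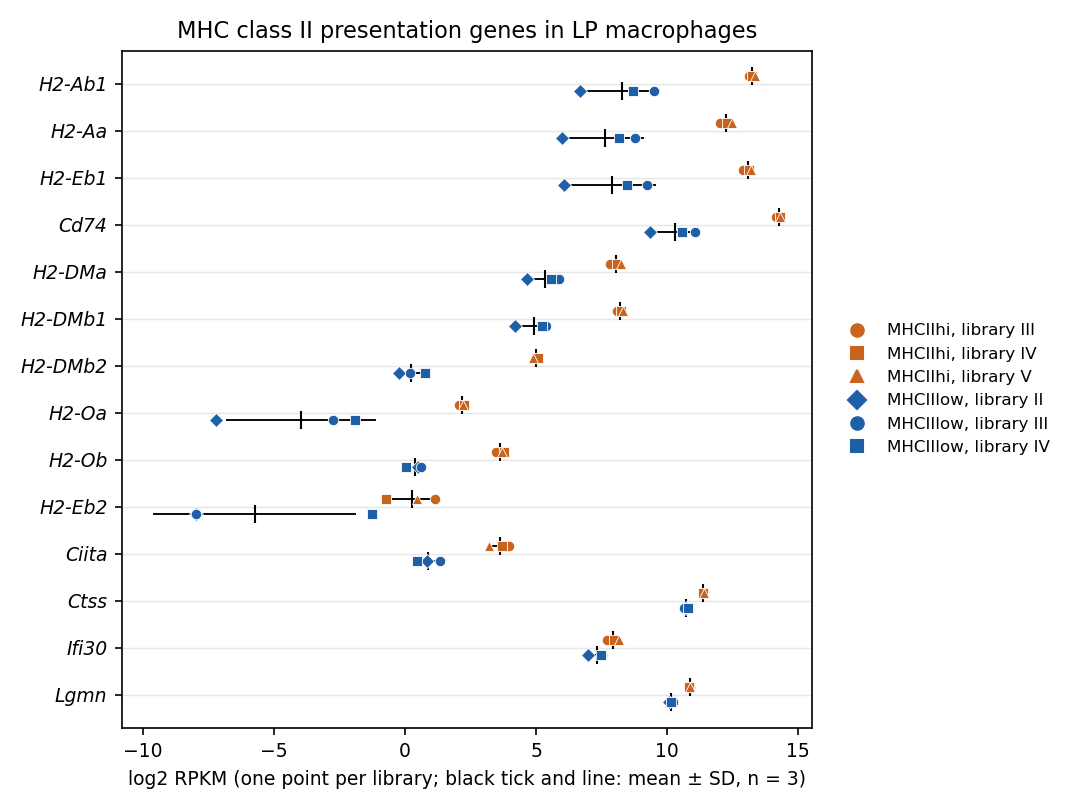
Each row is 1 gene of the MHC class II list and each point 1 library, on an axis of log2 RPKM; orange marks MHCIIhi, blue MHCIIlow, and the black tick and line give the mean ± SD of 3 libraries. The MHCIIhi points of H2-Ab1, H2-Aa, H2-Eb1 and Cd74 sit above 12, the highest MHCIIlow point of these genes is 11.06 for Cd74, and MHCIIlow library II is the lowest of its group for each.

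Over all 12878 genes, 991 were called in LP (7.70%), of which 274 were higher in MHCIIlow (2.13%) and 717 higher in MHCIIhi (5.57%), and 2623 had an unadjusted p under 0.05. The groups did not overlap for 267 of the 274 and 702 of the 717, beside 14.6% and 17.9% of all tested genes in those directions. The difference was at least 4-fold for 75 genes higher in MHCIIlow and 171 higher in MHCIIhi. The share of calls higher in MHCIIlow was 27.6%, and it depended on the scale: 43.5% with log2(RPKM + 1) (738 and 957 genes), 39.5% after quantile normalization (510 and 781) and 40.3% with limma voom on recovered reads (742 and 1099). With only the 6 LP macrophage libraries in the fit, 267 genes were higher in MHCIIlow (2.07%) and 517 in MHCIIhi (4.01%), and these held 114 (41.6%) of the 274 and 369 (51.5%) of the 717. With the pool number as a fixed block, in which MHCIIlow II adds nothing to the contrast because no other LP library has its number, the counts were 156 and 546. Leaving out MHCIIlow library II gave 108 and 471, and every other single omission except that of MHCIIlow III (280 and 735) also lowered both counts, to 114 and 409 without MHCIIhi III, 128 and 421 without MHCIIhi IV, 162 and 489 without MHCIIhi V, and 143 and 503 without MHCIIlow IV. The counts for single gene lists below are to be read beside the shares of 2.13% and 5.57%. All these counts are less certain than the genes named as holding under every alternative.

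**Figure D2:**
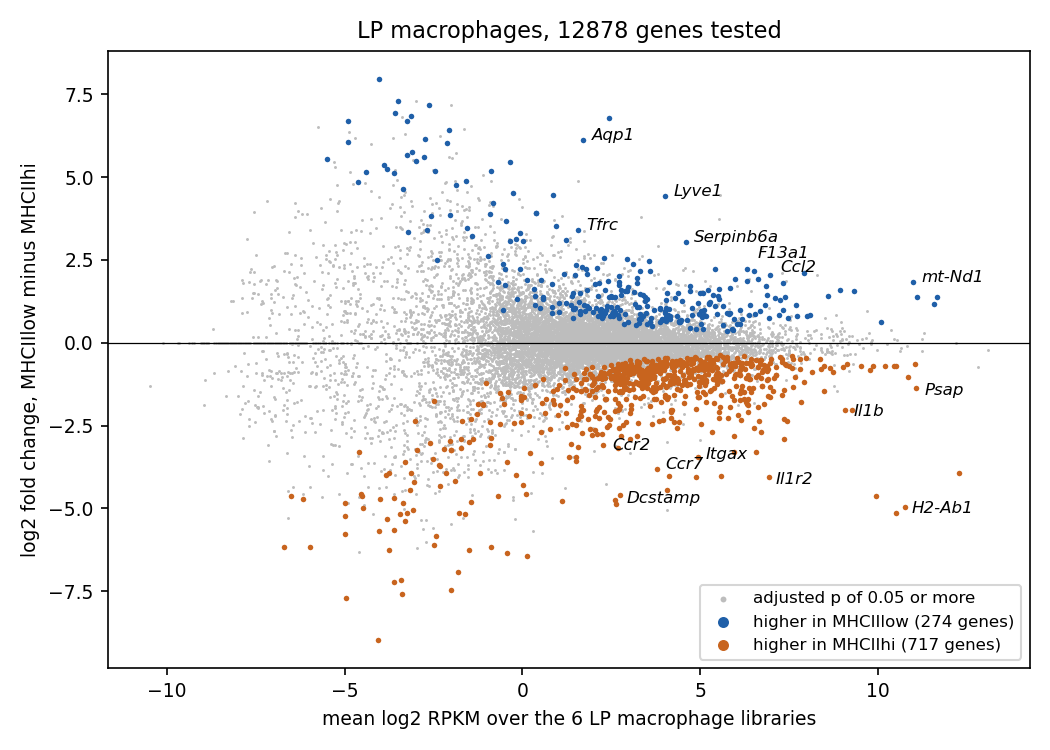
Each point is 1 of the 12878 tested genes, with its mean log2 RPKM over the 6 LP libraries on the horizontal axis and its log2 fold change (MHCIIlow minus MHCIIhi) on the vertical axis; colour marks an adjusted p under 0.05. The 717 orange genes include abundant ones such as H2-Ab1, Il1b and Psap, while among the 274 blue genes the widest differences belong to genes of low level.

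Outside the class II list, the genes with the largest folds towards MHCIIhi under the naming rule were Ifit1bl1, Klrb1b, Pdcd1lg2, Dcstamp, Snx20, Il1r2, Mir5107, Ocstamp, Gpr171 and Ccr7. Of these, Dcstamp, Il1r2, Pdcd1lg2, Ocstamp and Gpr171 lost the call in at most 1 alternative and come first. Dcstamp (chr15:39745930-39760938) encodes a membrane protein needed for the fusion of macrophages and osteoclasts, and it was at 5.33, 4.87 and 4.93 in MHCIIhi and -0.38, 0.71 and 1.01 in MHCIIlow. Its fold change was -4.60 ± 0.38, or 24.2-fold, with an adjusted p of 4.33e-07 in limma. Ocstamp, its partner in osteoclast fusion, was at 6.44, 6.02 and 5.94 against 0.23, 3.73 and 2.37 (16.2-fold, adjusted p = 0.000173, and 0.0644 with only the 6 LP libraries). Il1r2 (chr1:40074079-40125231), the decoy receptor that binds interleukin-1 without signalling, was at 8.93, 8.87 and 9.13 against 3.75, 5.44 and 5.55 (16.7-fold, adjusted p = 3.48e-06). Every MHCIIhi library was at least 3 log2 units above every MHCIIlow library for Dcstamp and Il1r2, and neither lost its call under any alternative run. Pdcd1lg2 (chr19:29410919-29471161), which encodes the PD-1 ligand PD-L2, had 602 to 955 reads in each MHCIIhi library and 10 to 32 in each MHCIIlow library (27.2-fold, adjusted p = 7.02e-06). Gpr171, an orphan-like receptor of lymphoid and myeloid cells, was at 7.52 to 7.65 against 1.75, 4.52 and 4.50 (16.1-fold, adjusted p = 9.29e-05, and 0.0518 with only the 6 LP libraries).

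The other genes at the MHCIIhi end, apart from Mir5107, lost the call in 2 or more alternatives. Ccr7, the receptor that guides cells to lymph nodes, was at 5.37 to 5.92 against -0.49, 3.72 and 2.41 (adjusted p = 0.00831), and its adjusted p was 0.0575 without MHCIIlow II and 0.104 with only the 6 LP libraries. Ifit1bl1 (2.95 to 3.95 against -8.00 to 1.83, adjusted p = 0.0285), Klrb1b (4.82 to 5.24 against -1.13 to 1.77, adjusted p = 0.0193) and Snx20 (6.09 to 6.44 against -0.03 to 3.53, adjusted p = 0.0448) lost the call with the pool block, at 0.096, 0.069 and 0.125. They also lost it without any one of MHCIIhi III, IV or V or MHCIIlow II or IV, with highest values of 0.177, 0.0942 and 0.199. Klrb1b shares 27.0% of its 51-base stretches with related genes. Mir5107, a miRNA gene inside Cd74, followed its host (16.7-fold), and their reads cannot be told apart.

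At the MHCIIlow end, Serpinb6a (chr13:33917918-34002794), an intracellular inhibitor of serine proteases, was at 2.88, 3.01 and 3.33 in MHCIIhi and 6.47, 5.68 and 6.19 in MHCIIlow. It was 8.22-fold higher in MHCIIlow (fold change 3.04 ± 0.40, adjusted p = 6.92e-05), with 29.3% of its exon bases opposite the gene Nqo2 and another gene, which reads without strand cannot separate. Spry2 (chr14:105891947-105896819), an inhibitor of receptor tyrosine kinase signalling that was named after its values were seen, had 26 to 28 reads in each MHCIIhi library and 143 to 716 in each MHCIIlow library. Its difference was 15-fold (fold change 3.91 ± 0.47, adjusted p = 3.04e-05). S100a6, a calcium-binding protein of the S100 family, was at 1.90, 2.71 and 2.34 against 5.2, 4.5 and 4.64 (5.52-fold, adjusted p = 0.00084). Serpinb6a, Spry2 and S100a6 kept the call under every alternative run, and their libraries did not overlap. Tfrc, the transferrin receptor that brings iron into cells, was at -1.92, 0.74 and 0.72 against 4.46, 2.13 and 3.16 (10.6-fold, adjusted p = 0.00164) and was not called with only the 6 LP libraries (adjusted p = 0.103).

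The other genes at that end lost the call in 2 or more alternatives. Aqp1 (chr6:55336432-55348555), a water channel, was at -2.27, -0.61 and -1.18 against 7.38, 3.73 and 3.19, a 69.8-fold difference with an adjusted p of 0.0254. Its adjusted p was 0.0562 with the pool block and up to 0.141 with 1 library left out, passing 0.05 without MHCIIhi III, IV or V or MHCIIlow II. Saa3, an acute-phase serum amyloid A made by macrophages, was at -0.70 to -0.06 against 0.68, 4.58 and 3.07 (8.65-fold, adjusted p = 0.0161), with library II the lowest of MHCIIlow. The call of Saa3 was lost without MHCIIhi III or V or MHCIIlow III or IV (up to 0.0815), with only the 6 LP libraries (0.131) or the 12 macrophage libraries (0.0563) and with voom on recovered reads (0.220). Steap4, Cavin1, Selenbp1, Wwp1 and Pmp22 were 4.33-fold to 5.93-fold higher with adjusted p of 0.0204 to 0.0462, and all 5 lost the call with the block (0.0575 to 0.245) and without any one of MHCIIhi III, IV or V or MHCIIlow II (up to 0.232), all but Steap4 also without MHCIIlow IV. Of the 51-base stretches of Selenbp1, 45.5% also occur in Selenbp2. Tppp3, a tubulin-binding protein, was 4.69-fold higher (adjusted p = 0.0102), with 0.0646 at most, over 0.05 without MHCIIhi IV or MHCIIlow II.

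Most genes known from long-lived resident macrophages were separated by library towards MHCIIlow, and fewer were called. Of the 28 tested members, 6 were called higher in MHCIIlow (beside 2.13% of all tested genes) and 0 higher in MHCIIhi, with a median fold change of 2.00, and for 25 of the 28 all MHCIIlow libraries lay above all MHCIIhi libraries, beside 14.6% of all tested genes. The number called depended on the fit: 21 with only the 6 LP libraries, 3 with the pool block, 1 without MHCIIlow II, and 1 to 24 over all alternatives. Lyve1 (chr7:110850607-110863239), a hyaluronan receptor of lymphatic vessels and perivascular macrophages, was at 2.22, 1.06 and 2.10 against 8.22, 4.91 and 5.57 (21.8-fold, adjusted p = 0.0309). Its adjusted p was 0.160 with the block and up to 0.167 with 1 library left out (over 0.05 for each of the 6 but MHCIIlow III). F13a1, a coagulation factor subunit, was at 5.38 to 5.48 against 8.81, 6.87 and 7.09 (4.52-fold, adjusted p = 0.0110, 0.0526 with the block and 0.0789 without MHCIIlow II). Stab1, a scavenger receptor, was at 4.51 to 4.78 against 5.57 to 6.25 (2.33-fold, adjusted p = 0.0048), held with each library left out (0.035 at most) and was at 0.0556 with the block. Maf, a transcription factor of resident macrophages, was at 1.54 to 2.08 against 3.38 to 3.81 (3.35-fold, adjusted p = 0.0108), with 0.0572 at most, over 0.05 without MHCIIhi IV or MHCIIlow II. Pf4 (7.63 to 8.13 against 9.25 to 9.37, adjusted p = 0.0483) and Slc40a1 (2.73 to 2.94 against 3.74 to 4.36, adjusted p = 0.0473) lost the call with any 1 library left out, at 0.0771 to 0.164 and 0.0675 to 0.139, and Slc40a1 also with the block (0.0595).

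Several well-known members of this list were separated by library but not called in the fit of all 24 libraries, and the following were named after their values were seen. Folr2, a folate receptor, was at 4.96, 5.22 and 5.73 against 8.43, 7.82 and 8.28 (fold change 2.87), with an adjusted p of 0.344 over 24 libraries and 0.014 over the 6 LP libraries, and 63.1% of its exon bases lie opposite another gene model. Cd163, the scavenger receptor for haemoglobin, was at 1.85, 2.19 and 3.03 against 5.94, 4.69 and 5.23 (adjusted p = 0.246 and 0.032). Vsig4, a complement receptor of tissue macrophages, was at -0.83, -1.54 and -0.28 against 5.26, 3.40 and 3.32 (0.0653 and 0.024). For these 3 genes the lowest MHCIIlow library was above the highest MHCIIhi library, and the call turned on which libraries set the spread. Fcna (fold change 4.45), Cbr2 (3.73), Cd209f (3.82), Marco (4.32), Colec12 (3.05), Gas6 (1.94), Igf1 (2.06) and Ccl24 (2.16) behaved the same way, with adjusted p of 0.0509 to 0.219 over 24 libraries and 0.0147 to 0.044 over 6. Timd4, a receptor for phosphatidylserine, was at 0.58 to 1.30 against 2.48 to 3.42 (0.528 and 0.040). Mrc1, Clec4n and Selenop differed by 0.38 or less in either direction and were not called (adjusted p = 0.295 to 0.923).

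**Figure D3:**
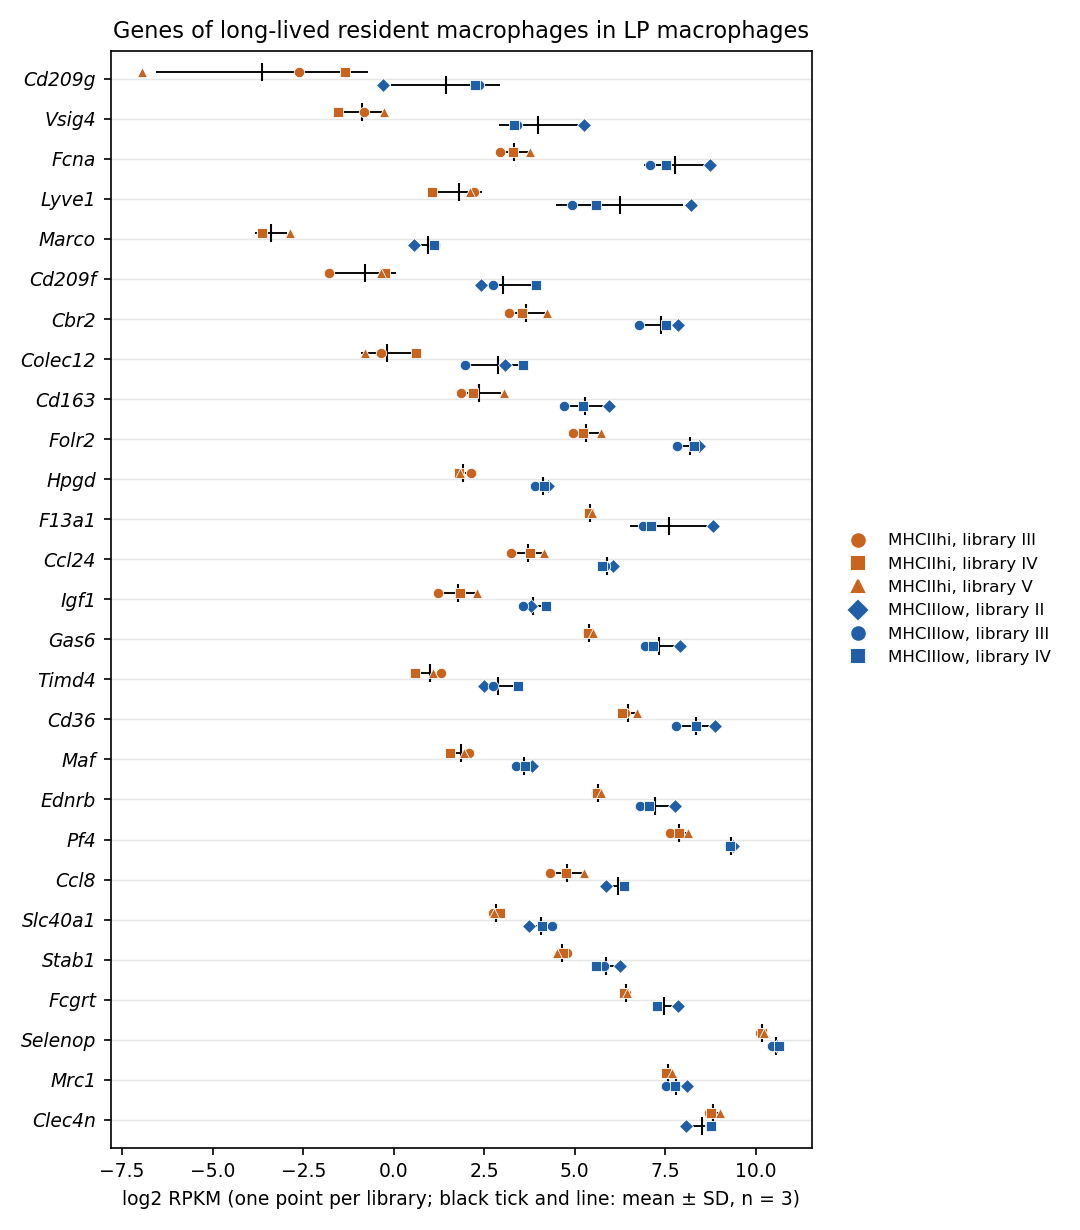
Each row is 1 of 27 tested genes of the long-lived resident macrophage list and each point 1 library, on an axis of log2 RPKM; orange marks MHCIIhi, blue MHCIIlow, and the black tick and line give the mean ± SD of 3 libraries. The MHCIIlow points lie to the right of the MHCIIhi points for 25 of the 27 genes, with library II (diamonds) far to the right for Lyve1, F13a1 and Vsig4.

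The list of genes that gut macrophages gain as they mature from monocytes leaned to MHCIIhi. Of its 24 tested genes 5 were called higher in MHCIIhi and 0 higher in MHCIIlow (median -0.36). With the pool block 4 and 0 were called and the median was -0.14. Adgre1, described above with the sorted proteins, was among the 5. Itgax, the gene of CD11c (chr7:128129547-128150657), was at 6.73, 6.62 and 6.58 against 1.82, 4.34 and 3.45, which is 10.8-fold higher in MHCIIhi (adjusted p = 1.39e-05). Dnase1l3, a secreted nuclease that degrades chromatin of dying cells, was at 7.49, 7.63 and 7.71 against 2.85, 5.09 and 4.96 (9.89-fold, adjusted p = 0.000222). Runx3, a transcription factor, was at 5.14 to 5.38 against 3.67 to 4.16 (2.41-fold, adjusted p = 0.000506). These 3 held under every alternative run and were separated in every library. CD11c was also part of the gate that removed dendritic cells, and the part of that gate in the Itgax level was not tested. Cd14, a coreceptor for lipopolysaccharide, was at 11.32 to 11.39 against 10.23 to 10.47 (adjusted p = 0.0206), with up to 0.0715, over 0.05 without any one library but MHCIIlow III. Csf1r, the receptor for the macrophage growth factor, and Cx3cr1 and Mertk, marks of mature gut macrophages, were named after their values were seen and were not called (fold changes -0.35, -0.03 and -0.06, adjusted p = 0.153, 1.00 and 0.985). Fcgr1, the gene of CD64, was at 7.07 to 7.27 against 5.48 to 6.31 with an adjusted p of 0.0524.

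Genes tied to recent monocyte origin moved both ways. Of 21 tested genes, 3 were called higher in MHCIIhi and 3 higher in MHCIIlow, with a median of -0.22 that was 0.15 with the pool block. Ccr2, the receptor that draws monocytes out of the bone marrow, was at 3.83, 3.70 and 3.96 in MHCIIhi against 0.01, 1.43 and 0.75 (8.56-fold, adjusted p = 2.54e-05). Ms4a4c, a membrane protein of monocytes, was at 4.24, 4.74 and 4.42 against 0.58, 2.13 and 1.97 (7.52-fold, adjusted p = 0.000153). Thbs1, a secreted matrix glycoprotein, was at 10.23 to 10.34 against 7.25 to 8.76 (4.12-fold, adjusted p = 0.0041, and 0.0618 with only the 6 LP libraries). The 3 higher in MHCIIlow were S100a6, described above, S100a10, an annexin A2 partner (4.78 to 5.17 against 6.45 to 6.86, adjusted p = 0.0103, and 0.0524 without MHCIIhi III), and Ifitm6, which had only 3 to 9 reads in each MHCIIhi library (adjusted p = 0.0435). Ifitm6 lost the call with the block (0.183) and without any one library but MHCIIlow III (up to 0.158). Lyz2, the lysozyme gene of myeloid cells, was at 12.92 to 13.37 in all 6 (adjusted p = 0.743). S100 and Ccr2 genes of the same list thus stood on opposite sides.

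Presentation by MHC class I and the interferon response were called only towards MHCIIhi. Of 18 class I genes, 6 were called higher in MHCIIhi and 0 in MHCIIlow (median -0.54). Tap1, a subunit of the peptide transporter, was at 4.92, 5.03 and 4.72 against 3.05, 3.70 and 3.05 (3.08-fold, adjusted p = 0.0061). H2-T23, the nonclassical Qa-1 molecule, was at 5.98 to 6.30 against 4.70 to 5.33 (2.22-fold, adjusted p = 0.00218), and Pdia3, a chaperone of the loading complex, was at 8.10 to 8.29 against 7.30 to 7.57 (1.72-fold, adjusted p = 0.00109). These 3 held throughout, while Erap1, Tapbp and H2-K1 (folds of 1.61 to 1.98, adjusted p = 0.0121 to 0.0254) lost the call without MHCIIhi IV or MHCIIlow II (up to 0.118). Erap1 also lost it without MHCIIhi III, MHCIIhi V or MHCIIlow IV, Tapbp without MHCIIhi III and H2-K1 without MHCIIlow IV. H2-D1 (-0.25) and B2m (0.10), the other chains of the molecule, were not called (adjusted p = 0.475 and 0.908). Of 41 interferon-stimulated genes, 8 were called higher in MHCIIhi (beside 5.57% of all tested genes) and 0 in MHCIIlow (median -0.84), and 28 had all MHCIIhi libraries above all MHCIIlow libraries (beside 17.9%). The count of interferon-stimulated genes called was 3 without MHCIIlow II, and also 3 without MHCIIhi III or MHCIIhi IV. It was 4 without MHCIIlow IV, 6 without MHCIIhi V, 8 without MHCIIlow III and 10 with only the 6 LP libraries. Ciita, the class II coactivator described above, was among the 8 and was called in each of these fits. The interferon count is therefore not wholly separate from the sort on MHC class II. Gbp4, a guanylate-binding protein, was at 4.52 to 4.71 against 0.64, 2.88 and 1.92 (7.09-fold, adjusted p = 0.00166, and 0.0523 with only the 6 LP libraries). Cxcl9, a chemokine for activated T cells, was at 2.47, 3.29 and 3.65 against -0.70, -1.10 and 1.81 (adjusted p = 0.012), with up to 0.063, over 0.05 without MHCIIhi V or MHCIIlow II or III. Ifit2, Ifi47 and Rsad2 were 2.47-fold to 3.50-fold higher (adjusted p = 0.0262 to 0.0447) and were not called without MHCIIlow II, MHCIIhi III or MHCIIhi IV (up to 0.195), Ifi47 and Rsad2 also without MHCIIlow IV and Ifi47 without MHCIIhi V, and Ifit2 was at 0.101 with the block. Ifit1 and Oasl1, among the most abundant of the list, differed by -0.78 and -0.45 and were not called (adjusted p = 0.233 and 0.684).

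Chemokines were split between the populations. Of 23 tested, 4 were called higher in MHCIIlow and 2 in MHCIIhi (median 0.68), Pf4 and Cxcl9 among them as described above. Without MHCIIlow II 0 and 1 were called, and without MHCIIhi III 0 and 2. Over all 6 omissions the counts were 0 to 3 and 1 to 2. Cxcl16, a membrane-bound chemokine and scavenger receptor, was at 8.45, 8.50 and 8.57 in MHCIIhi against 7.08, 7.43 and 7.47 (2.26-fold, adjusted p = 0.00017). Ccl2, which attracts monocytes, was at 5.47, 6.15 and 6.17 against 8.37, 7.59 and 8.02, 4.17-fold higher in MHCIIlow (adjusted p = 0.0106, 0.054 with the block, and up to 0.0612 without MHCIIhi III or MHCIIlow II). Its neighbour Ccl7 was at 6.85, 7.44 and 7.45 against 9.46, 9.01 and 9.41, a similar difference (2.05), and was not called (adjusted p = 0.303). Ccl6 and Ccl9 were 2.58-fold and 1.76-fold higher in MHCIIlow (adjusted p = 0.0133 and 0.0399), and both were lost without MHCIIhi III, MHCIIhi IV or MHCIIlow II (up to 0.0796 and 0.214), Ccl9 also without MHCIIhi V or MHCIIlow IV. The MHCIIlow libraries thus held more transcript of the CCR2 ligand Ccl2 and the MHCIIhi libraries more of the receptor Ccr2.

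Among 22 chemoattractant receptors, 5 were called higher in MHCIIhi and 0 in MHCIIlow (median -0.24). With only the 6 LP libraries the counts were 2 and 0, and without MHCIIlow II they were 2 and 1. Over all 6 omissions they were 2 to 4 and 0 to 1. Ccr2 and Ccr7 are described above. Gpr183, an oxysterol receptor, was 2.44-fold higher (adjusted p = 0.0442, 0.0817 with the block and 0.0886 to 0.130 with any library left out), and Fpr2, a formyl peptide receptor, 1.70-fold (adjusted p = 0.0345, 0.0875 with the block, up to 0.179 without MHCIIhi III, MHCIIhi IV, MHCIIlow II or MHCIIlow III). The abundant C5ar1 and Ccr1 were not called (0.21 and -0.28). Ltb4r1, the high-affinity receptor for leukotriene B4, was named after its values were seen: it was at 3.33, 3.15 and 2.51 against 0.30, 0.90 and 0.84 (4.97-fold higher in MHCIIhi, adjusted p = 0.000412) and held throughout.

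Among 23 cytokine genes, 4 were called higher in MHCIIhi and 1 in MHCIIlow (median -0.28). Il1b (chr2:129364570-129371139), the inflammatory cytokine interleukin-1 beta, was at 9.97, 10.03 and 10.27 against 7.63, 8.30 and 8.27 (4.06-fold higher in MHCIIhi, adjusted p = 0.000139, held throughout). Both Il1b and its decoy receptor Il1r2 were therefore higher in MHCIIhi, and so was the antagonist Il1rn (9.77 to 9.94 against 9.02 to 9.24, adjusted p = 0.0179, up to 0.0658 without MHCIIhi IV, MHCIIhi V or MHCIIlow III). Il23a, a subunit of interleukin-23, had 12 to 24 reads in each MHCIIhi library and 0 to 2 in each MHCIIlow library, at least 3.19-fold higher in MHCIIhi (adjusted p = 0.0146, up to 0.065 without MHCIIhi IV or MHCIIlow IV), where the bound takes 3 reads per library as the floor. Its call was also lost with log2(RPKM + 1) (0.742), log2(RPKM + 0.1), the 12 macrophage libraries (0.076) and voom (0.345). Tnfsf13b, the B cell factor BAFF, was 2.72-fold higher (adjusted p = 0.0257, up to 0.145 without any one of the MHCIIhi libraries or MHCIIlow IV). Lif, an interleukin-6 family cytokine, had 3 to 101 reads in MHCIIhi and 130 to 334 in MHCIIlow, and was 14.8-fold higher in MHCIIlow (adjusted p = 0.000848), except with only the 6 LP libraries (0.122). Il10, the suppressive cytokine central to gut macrophages, was at 6.15, 6.45 and 6.53 against 7.88, 6.31 and 6.66, so the groups overlapped and it was not called (adjusted p = 0.469). Tnf (named after its values were seen, 5.90 to 7.09 against 5.85 to 6.27, adjusted p = 0.619) and Il1a (6.15 to 6.52 against 6.65 to 7.36, adjusted p = 0.215) were not called.

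Ligands that tune T cells were called in 1 direction only. Of 21 costimulatory and checkpoint genes 6 were called higher in MHCIIhi and 0 in MHCIIlow (median -0.62), and 15 were not called. Cd86, the costimulatory ligand of CD28, was at 8.17, 8.16 and 8.23 against 7.03, 7.17 and 7.24 (2.06-fold, adjusted p = 0.00017). Cd274, the gene of PD-L1 (chr19:29367455-29388095), was at 7.11, 7.31 and 7.05 against 5.66, 5.73 and 6.03 (2.55-fold, adjusted p = 0.000926). Slamf8, a SLAM family receptor, was at 6.44 to 6.66 against 3.81, 5.04 and 4.57 (4.25-fold, adjusted p = 0.000435). These 3 and Pdcd1lg2 held under every alternative run, so a stimulatory ligand and both ligands of PD-1 were higher in the same population. Sirpa, the receptor for CD47, was 1.64-fold higher (adjusted p = 0.00827, 0.0835 with the block and 0.0525 without MHCIIlow II). Cd83 (0.12) and Lgals9 (-0.08) were not called, at adjusted p of 0.880 and 0.902.

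Receptors for microbes, immunoglobulin and sialic acid followed. Of 33 pattern recognition receptors, 8 were called higher in MHCIIhi and 1, Tlr2, in MHCIIlow (median -0.55). Without MHCIIlow II the counts were 5 and 0, without MHCIIhi III 3 and 0, and without MHCIIhi V 4 and 1. Over all 6 omissions they were 3 to 8 and 0 to 1. Tlr2, named after its values were seen, was at 5.79 to 6.18 against 7.46, 6.30 and 6.59 (adjusted p = 0.0297), and lost the call with the block (0.216) and without MHCIIhi III, MHCIIhi IV or MHCIIlow II (up to 0.176). Tlr5, the flagellin receptor, was at 3.35 to 3.60 against 1.64 to 1.82 (3.24-fold, adjusted p = 0.000848), and Tlr8, which senses RNA in endosomes, was at 4.04 to 4.14 against 2.78 to 3.32 (2.15-fold, adjusted p = 0.00763), both held throughout. Tlr1 and Tlr6, partners of TLR2 for lipopeptides, were 2.33-fold and 2.42-fold higher (adjusted p = 0.0209 and 0.0175), and both were lost without MHCIIhi III or V (up to 0.133 and 0.110), Tlr1 also without MHCIIlow II and with the block (0.127), Tlr6 also without MHCIIlow IV. Nod2, a cytosolic sensor of peptidoglycan, was 2.13-fold higher (adjusted p = 0.0157, up to 0.0987 without MHCIIhi III or MHCIIlow IV). Clec7a, the beta-glucan receptor Dectin-1, was at 7.03 to 7.29 against 4.17, 6.07 and 5.93 (3.45-fold, adjusted p = 0.0047, and 0.114 with only the 6 LP libraries). TLR2 and its partners thus lay on opposite sides, although none of these 3 calls held throughout.

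Of 21 Fc and immunoglobulin-type receptors 7 were called higher in MHCIIhi and 0 in MHCIIlow (median -0.43), and 2 in each direction with only the 6 LP libraries. Siglece, an inhibitory sialic acid receptor, was at 5.08, 5.24 and 5.08 against 3.50, 4.34 and 3.73 (2.42-fold, adjusted p = 0.000512, held throughout). Fcgr4, an activating IgG receptor, was at 7.61 to 8.01 against 4.19, 6.58 and 5.66 (5.13-fold, adjusted p = 0.00286, and 0.0877 with only the 6 LP libraries), while Fcgr3 (-0.06) and the shared signalling chain Fcer1g (0.35) were not called. Treml4 (5.37-fold, adjusted p = 0.0116, and 0.221 with only the 6 LP libraries and 0.0903 with the 12 macrophage libraries) and Trem1 (2.29-fold, adjusted p = 0.018, up to 0.0925 without MHCIIhi IV, MHCIIhi V or MHCIIlow II) encode TREM family receptors. Cd300c had 10 to 48 reads in MHCIIhi and 0 to 1 in MHCIIlow, at least 4.74-fold higher (adjusted p = 0.0132, 0.151 with the block, up to 0.0627 without MHCIIhi IV, MHCIIlow II or MHCIIlow IV). Siglecg had 46 to 190 reads in MHCIIhi and 0 in 2 of the MHCIIlow libraries but 38 in the third (adjusted p = 0.0471, 0.143 with the block, up to 0.214 without any one library but MHCIIlow IV).

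Among 27 adhesion molecules 5 were called higher in MHCIIhi, Itgax among them, and 1 in MHCIIlow (median -0.59). F11r, the junctional adhesion molecule JAM-A, was at 5.54 to 5.79 against 4.66 to 4.82 (1.91-fold, adjusted p = 0.000412), and Selplg, the selectin ligand PSGL-1, at 6.50 to 6.63 against 5.48 to 5.76 (1.87-fold, adjusted p = 0.000379), both held throughout. Itgal, the alpha chain of LFA-1, was at 3.97 to 4.30 against 0.72, 2.94 and 2.25 (4.36-fold, adjusted p = 0.000521, and 0.0951 with only the 6 LP libraries). Pecam1 (4.20, 3.99 and 4.01 against -1.07, 2.98 and 2.81, adjusted p = 0.0285) was lost without any MHCIIhi library or MHCIIlow II, at up to 0.0925. Icam1, a ligand of LFA-1, was the 1 gene called higher in MHCIIlow, at 6.08 to 6.43 against 8.15, 6.51 and 6.85 (adjusted p = 0.0273), and was lost with the block (0.138) and without MHCIIhi III, MHCIIhi IV or MHCIIlow II (up to 0.104). Itgb2, the beta chain shared by LFA-1 and CD11b, was not called (-0.32, adjusted p = 0.280).

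Genes that remodel matrix and support tissue went both ways. Of 32 growth and tissue-support genes 9 were called higher in MHCIIhi and 2 in MHCIIlow (median -0.22, and 0.14 with the pool block), and 5 and 6 with only the 6 LP libraries. Mmp13 (chr9:7272514-7283331), a collagenase, was at 8.50, 8.52 and 8.47 against 5.60, 6.61 and 6.37 (4.93-fold, adjusted p = 0.000183, held throughout). Mmp2, Mmp12 and Mmp14, a gelatinase, the macrophage elastase and a membrane-bound activator of MMP2, were 5.46-fold, 5.26-fold and 3.68-fold higher (adjusted p = 0.00316, 0.0089 and 0.00385), and none was called with only the 6 LP libraries (0.0811 to 0.162), nor Mmp12 with the 12 macrophage libraries (0.0624). Timp2, the inhibitor of these proteases, went the other way, at 3.89, 3.81 and 4.07 against 5.92, 5.25 and 5.35 (2.98-fold higher in MHCIIlow, adjusted p = 0.00184, held throughout). Mmp19 (8.71 to 9.64) was not called (-0.84, adjusted p = 0.232). Sema4d, a semaphorin, was at 5.51 to 5.70 against 1.47, 4.07 and 3.66 (5.91-fold, adjusted p = 0.000277, and 0.096 with only the 6 LP libraries). Nrg1, a ligand of ErbB receptors made by gut stroma and macrophages, was at 6.61 to 6.79 against 1.86, 5.12 and 5.03 (6.40-fold, adjusted p = 0.0146, and 0.0794 without MHCIIlow II). Hbegf, a ligand of the EGF receptor, was higher in MHCIIlow, at 4.47 to 4.94 against 5.93 to 6.86 (3.10-fold, adjusted p = 0.0182, 0.0628 with the block, up to 0.097 without MHCIIhi III, MHCIIhi IV or MHCIIlow II). Ptgs2, the inducible cyclooxygenase that starts prostaglandin synthesis, was at 6.24, 6.43 and 6.26 against 4.63, 4.27 and 4.56 (3.54-fold higher in MHCIIhi, adjusted p = 3.04e-05, held throughout). Timp2, Hbegf and Ptgs2 were named after their values were seen.

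Uptake receptors and alternative activation genes gave mixed lists. Of 27 efferocytosis and scavenger genes, 5 were called higher in MHCIIhi and 1, Stab1, in MHCIIlow (median 0.10). Havcr2, the phosphatidylserine receptor TIM-3, was at 6.29, 6.40 and 6.39 against 4.84, 4.77 and 4.74 (2.98-fold higher in MHCIIhi, adjusted p = 1.18e-06), the tightest separation of these receptors by adjusted p. Axl, a receptor tyrosine kinase for dying cells, was at 7.28 to 7.5 against 4.46, 5.93 and 5.55 (4.21-fold, adjusted p = 0.00179), and Scarb2, a lysosomal membrane protein, at 5.92 to 5.99 against 4.92 to 5.13 (1.88-fold, adjusted p = 0.00107). All 3 held throughout, although Gas6, the AXL ligand described above, lay higher in the MHCIIlow libraries without a call. Cd300lf was 4.54-fold higher in MHCIIhi (adjusted p = 0.000623, and 0.0999 with only the 6 LP libraries), and Abca1, a cholesterol exporter, 1.52-fold (adjusted p = 0.023, 0.0684 with the block, up to 0.122 without any MHCIIhi library or MHCIIlow II). Cd36, a receptor for oxidised lipids, was at 6.31 to 6.72 against 7.79 to 8.87 and was not called (1.86, adjusted p = 0.139). Of 22 lipid genes 2 were called higher in MHCIIhi, Abca1 and Lipa, the lysosomal lipase (1.96-fold, adjusted p = 0.00253, and 0.0792 with only the 6 LP libraries), and Apoe was not (-0.74, adjusted p = 0.239).

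Of 20 alternative activation genes 3 were called higher in MHCIIhi, Pdcd1lg2, Clec7a and Tgm2 (2.67-fold, adjusted p = 0.00349, and 0.0896 with only the 6 LP libraries), and 1, Arg1, in MHCIIlow. The median of -0.09 was above 0 after quantile normalization, with the pool block and without MHCIIlow II. Arg1, which breaks down arginine, was at 5.10, 4.90 and 5.57 against 5.42, 8.02 and 8.78. The groups overlapped because library II was at the MHCIIhi level, and the adjusted p of 0.0209 rose to at most 0.134 with 1 library left out, over 0.05 without MHCIIhi III, MHCIIhi IV, MHCIIlow III or MHCIIlow IV. It was 0.198 with only the 6 LP libraries and 0.0909 with the 12 macrophage libraries. Here, too, library II differed from the other two of its group, in the opposite sense to Lyve1 and Aqp1. Mrc1 and Il4ra were not called (0.21 and -0.30).

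The 20 complement genes were divided evenly. C3, the central component, was at 5.70 to 5.81 against 3.10, 5.14 and 4.10, 3.11-fold higher in MHCIIhi (adjusted p = 0.00218, and 0.125 with only the 6 LP libraries). Cfb, the protease of the alternative pathway, was 5.21-fold higher in MHCIIhi (adjusted p = 0.0194, 0.120 with the block, up to 0.118 without MHCIIhi III, MHCIIhi IV or MHCIIlow II), with 79.5% of its exon bases inside another gene model. C4b (4.51-fold, adjusted p = 0.0418) and Cd55 (8.34-fold, adjusted p = 0.0224), a classical pathway component and a membrane inhibitor, were higher in MHCIIlow. Both were lost with the block (0.110 and 0.155), C4b without any 1 library (0.0744 to 0.147) and Cd55 without MHCIIhi V, MHCIIlow II or MHCIIlow IV (up to 0.125), and 33.9% of the 51-base stretches of C4b also occur in C4a. C1qa (-0.02) and C1qb (-0.10), which gut macrophages make in quantity, were not called. In all, 3 were called in each direction (median 0.03), with C4b and Cd55 among those higher in MHCIIlow and C3 and Cfb among those higher in MHCIIhi.

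Lysosomal genes leaned to MHCIIhi by small folds. Of 35 tested, 11 were called higher in MHCIIhi and 2 in MHCIIlow (median -0.24), but 4 and 0 with only the 6 LP libraries and also without MHCIIlow II. Over all 6 omissions the counts were 4 to 9 and 0 to 2. Psap, the precursor of the saposins that help degrade sphingolipids, was at 11.70, 11.80 and 11.79 against 10.12, 10.63 and 10.41 (2.60-fold, adjusted p = 3.48e-05, held throughout). Ctsh (1.78-fold, adjusted p = 0.0105) was lost without MHCIIlow II (0.073) and with the block (0.0564). Ctse (3.66-fold, adjusted p = 0.025, 0.0521 with the block) was lost in 5 of the 6 omissions, all but that of MHCIIlow IV, at up to 0.120. The genes called higher in MHCIIlow, named after their values were seen, were the protease Ctsd (1.53-fold, adjusted p = 0.0309) and the protease inhibitor Cstb (1.68-fold, adjusted p = 0.0225). Both lost the call without MHCIIhi III, MHCIIhi IV, MHCIIlow II or MHCIIlow IV (up to 0.110 and 0.129), Ctsd also without MHCIIhi V and with the block (0.118), and 34.4% of the exon bases of Ctsd lie in another gene model. Ctsb (-0.24) and Cd68 (0.12) were not called. Iron genes were called more often in the other direction, 3 of 20 higher in MHCIIlow (Tfrc, Steap4 and Slc40a1) and 1 in MHCIIhi (median 0.40). That gene, Slc11a1, encodes the metal transporter NRAMP1 and was at 8.54 to 8.64 against 7.49 to 7.95 (1.86-fold, adjusted p = 0.0027, held throughout). The ferritin genes Fth1 (-0.01) and Ftl1 (0.08) were not called, and Hmox1, the haem-degrading enzyme, named after its values were seen, was at 9.17 to 9.26 against 9.96 to 10.27 with an adjusted p of 0.106.

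Among 36 transcription factors of macrophages and dendritic cells, 5 were called higher in MHCIIhi and 2 in MHCIIlow (median -0.25, and 0.14 with the block). Bhlhe40, a regulator of macrophage proliferation and cytokines, was at 6.06, 5.92 and 6.05 against 4.42, 4.74 and 4.56 (2.71-fold, adjusted p = 4.66e-05), and Irf5, which drives inflammatory genes, at 7.44 to 7.58 against 6.66 to 6.90 (1.66-fold, adjusted p = 0.000669), both held throughout along with Runx3. Runx2 was at 2.15, 1.89 and 1.64 against -4.03, -0.15 and -0.14 (10.1-fold, adjusted p = 0.00256, 0.147 with only the 6 LP libraries and 0.0512 with the 12 macrophage libraries). Stat6, the factor that carries interleukin-4 signals, was 1.40-fold higher in MHCIIhi (adjusted p = 0.00702, and 0.0706 with only the 6 LP libraries) and was named after its values were seen. Id3, an inhibitor of bHLH factors, joined Maf on the other side, at 1.89 to 2.60 against 3.75 to 4.52 (3.87-fold, adjusted p = 0.0117, up to 0.0613 without MHCIIhi III or MHCIIlow IV). Klf6 (-0.35) was not called.

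Of 25 glycolysis genes 3 were called higher in MHCIIhi and 0 in MHCIIlow (median -0.15), and 0 with only the 6 LP libraries. Slc16a3, the lactate exporter, was at 4.23, 3.93 and 3.97 against 2.65, 3.39 and 3.06 (2.02-fold, adjusted p = 0.00131), and Slc2a6, a glucose transporter family member, at 3.31 to 3.92 against 1.78 to 2.65 (2.60-fold, adjusted p = 0.00214). Both lost the call with only the 6 LP libraries (0.0564 and 0.0561), and Pfkp (1.61-fold, adjusted p = 0.016) without MHCIIhi III, MHCIIhi IV, MHCIIlow III or MHCIIlow IV (up to 0.0719). Of the 12 tested mRNA genes of the mitochondrial genome, 7 were called higher in MHCIIlow and 0 in MHCIIhi, with fold changes from 0.80 to 1.84 (median 1.48). For 10 of them all MHCIIlow libraries lay above all MHCIIhi libraries, beside 14.6% of all tested genes. mt-Nd4, a subunit of respiratory complex I named after its values were seen, was at 8.13, 8.10 and 8.18 against 9.24, 9.84 and 10.10 (3.01-fold, adjusted p = 4.09e-05, held throughout), and 62.2% of its 51-base stretches also occur in the gene model Gm28439. Of 32 immediate-early and heat shock genes, which respond to handling, 2 were called higher in MHCIIhi (Fos and Dusp1, beside 5.57% of all tested genes) and 1, Hspa1a, in MHCIIlow (median 0.22, below 0 with the block and without MHCIIlow II). Hspa1a was at 5.35, 5.71 and 5.94 against 9.61, 6.33 and 6.86 (adjusted p = 0.0299), so library II was far above the rest. The call was lost without library II or any MHCIIhi library (up to 0.121) and with the block (0.181). Of the 51-base stretches of Hspa1a, 66.1% also occur in other gene models, Hspa1b among them, so its values may not be its own alone. Fos (1.67-fold, adjusted p = 0.0376) and Dusp1 (1.63-fold, adjusted p = 0.0374) were lost with the block (0.204 and 0.0742) and in 5 and 6 of the 6 omissions (up to 0.152 and 0.160), that of MHCIIlow III being the exception for Fos. The part of the mitochondrial and stress values in the other results was not tested.

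Many calls described above with a loss in some fits were also lost when fewer groups set the spread. With only the 6 LP libraries, besides those given so far, the calls of Aqp1, Lyve1, F13a1, Steap4, Cavin1, Selenbp1, Ccl6, Ccl9, Cd55, Icam1, Tlr2, Hspa1a, Ctsd and Cstb, all higher in MHCIIlow, were lost (adjusted p = 0.0518 to 0.246). Of genes higher in MHCIIhi, the same fit lost Ifit1bl1, Snx20, Tapbp, H2-K1, Cxcl9, Ifit2, Rsad2, Sirpa, Tlr1, Tlr6, Nod2, Fpr2, Tnfsf13b, Trem1, Siglecg, Pecam1, Cfb, Ctsh, Ctse, Nrg1, Pfkp and Dusp1 (0.0519 to 0.242). With the 12 macrophage libraries, Aqp1, Lyve1, Cavin1, Ccl6, Ccl9, Icam1, Tlr2, Hspa1a, Ctsd and Ifitm6 lost the call towards MHCIIlow (0.0581 to 0.167). Towards MHCIIhi, Ifit1bl1, Snx20, H2-K1, Ifit2, Rsad2, Cd14, Tlr6, Nod2, Fpr2, Trem1, Siglecg, Pecam1, Abca1, Ctse, Ctss, Nrg1, Pfkp, Fos and Dusp1 lost it there (0.0555 to 0.162). A change of scale or test also removed some calls. With voom on recovered reads Snx20 (0.167), Fpr2 (0.299), Tnfsf13b (0.0789), Ifitm6 (0.128) and Ctse were not called. Fpr2, Siglecg, Cd300c and Ctse were lost with log2(RPKM + 1), Siglecg also with log2(RPKM + 0.1) and array weights, Fos, Dusp1 and Csf3r after quantile normalization, and Pf4, Slc40a1 and Ctsd with median centring. Without the filter on low values, Cavin1, Snx20, Ifi47, Pf4, Slc40a1, Gpr183 and Siglecg were not called.

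**Figure D4:**
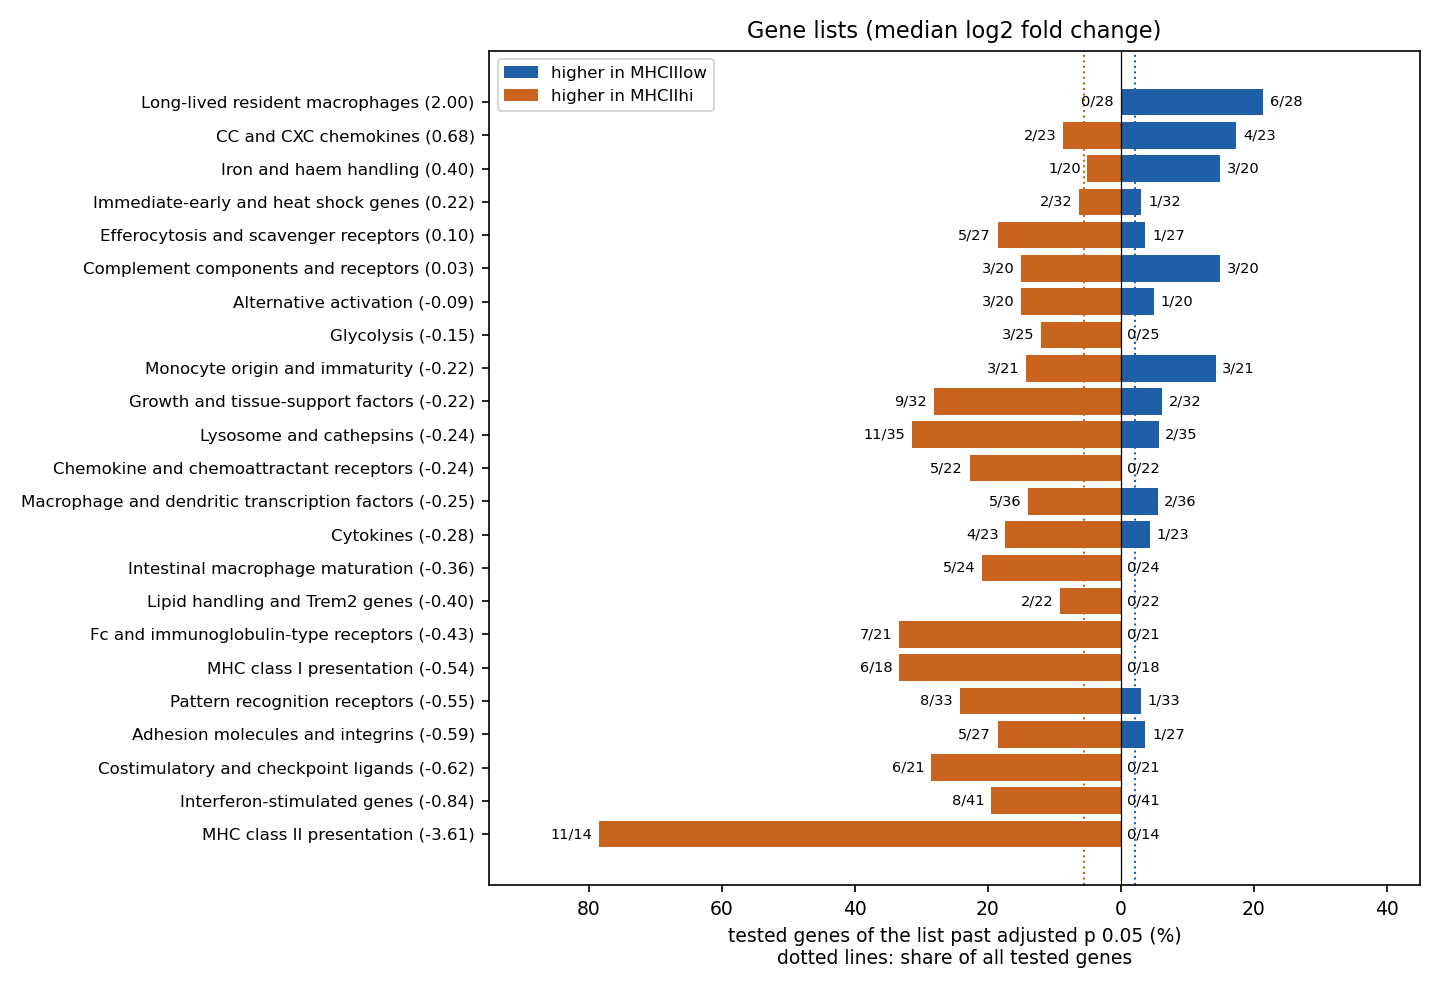
Each row is 1 gene list with its median log2 fold change in brackets; bars give the percent of its tested genes called higher in MHCIIlow (right, blue) and in MHCIIhi (left, orange), with counts beside them, and dotted lines mark the shares over all tested genes, 2.13% and 5.57%. The MHC class II list reaches farthest left with 11 of 14, and the resident macrophage list farthest right with 6 of 28.

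Markers of other cells were present at low levels and moved with the groups in part. Summed RPKM over the 10 macrophage markers was 4873 to 6190 in MHCIIhi and 4612 to 5282 in MHCIIlow. Monocyte markers summed to 40.0 to 46.8 against 5.17 to 23.9, with Ccr2 and Ms4a4c called. Dendritic cell markers summed to 58.6 to 80.1 against 25.0 to 33.5, with 2 of 8 called, Ccr7 and Flt3. Most of the MHCIIhi sum was Ccr7 (mean RPKM 52.1 against 6.41), and the direction of the sum rested on that gene. Of the 8 fold changes 5 were below 0 and 3 above. All MHCIIhi libraries were higher for 4 genes and all MHCIIlow libraries for 1. Flt3, the growth factor receptor of dendritic cells and their precursors, had 6 to 162 reads in MHCIIhi and 0 in all MHCIIlow libraries, at least 11.2-fold higher with 3 reads per library as the floor (adjusted p = 0.0281). It lost the call with the block (0.0939), with only the 6 LP libraries (0.0519), on both scales with an added constant, after quantile normalization and without any one library but MHCIIhi IV (up to 0.157). T and NK cell markers summed to 222 to 237 against 54.3 to 108, most of it Il7r (7.12 to 7.18 against 3.83 to 5.77, adjusted p = 0.000183, and 0.0729 with only the 6 LP libraries) and Cd4, while the Cd3 genes were near 0. These 3 sums were thus higher in every MHCIIhi library.

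In the opposite direction, epithelial markers summed to 8.68 to 23.1 in MHCIIhi and 28.2 to 42.3 in MHCIIlow, with 0 of 11 called (median fold change 1.30). Muscle and glia markers summed to 2.12 to 5.03 against 6.68 to 14.5, with 0 of 4 called. Fibroblast markers summed to 37.3 to 60.5 against 28.0 to 94.4, so these sums overlapped. Of the 8 tested, 7 had a fold change above 0 (median 1.52), while the 1 called, Mmp2, was higher in MHCIIhi. B and plasma cell markers summed to 17.0 to 27.4 against 11.4, 81.0 and 230 with 0 called. The values of MHCIIlow III and IV for plasma cell genes were far above library II: Jchain was at 6.17 and 7.79 in them and at 3.19 in II. Neutrophil (54.0 to 61.3 against 31.1 to 89.4), eosinophil (2.11 to 4.85 against 0.448 to 6.28), mast cell and basophil (1.73 to 2.77 against 0.325 to 3.20), endothelial (0.511 to 1.77 against 0.760 to 2.71) and erythroid (at most 0.617) markers were low in all libraries, and the only call among them was Csf3r, higher in MHCIIhi (adjusted p = 0.0224, 0.0787 with the block, up to 0.097 without MHCIIhi IV, MHCIIhi V, MHCIIlow II or MHCIIlow IV). The part of these cells in the differences above was not tested.

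The same 2 populations sorted from tumours differed for fewer genes. There, 146 genes were called (1.13%), 73 in each direction, and 1442 had an unadjusted p under 0.05. The LP and tumour comparisons share no library, although both take their spread from the same fit. Both called 54 genes, 5.45% of the LP calls and 37.0% of the tumour calls, of which 49 went the same way, 20 higher in MHCIIlow and 29 higher in MHCIIhi. Of the genes called higher in MHCIIlow in LP, 193 (70.4%) had a tumour fold change above 0, beside 50% of all genes tested, and of those higher in MHCIIhi, 536 (74.8%) had one below 0, beside 48.4%. The class II genes were lower in MHCIIlow in both tissues, at -2.85 for H2-Eb1, -2.58 for H2-Ab1, -2.61 for H2-Aa, -2.06 for Cd74 and -2.30 for Ciita in tumours (adjusted p = 0.00364 to 0.0403), and the tests of the difference between tissues did not reach the threshold (adjusted p = 0.200 to 0.854). Arg1 (2.22 in LP and 3.10 in tumours), Spry2 (3.91 and 2.79), S100a10 (1.65 and 1.87) and Plp2 (1.84 and 1.97) were higher in MHCIIlow in both. Plp2 was named after its values were seen, and 58.8% of its 51-base stretches also occur in other gene models.

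The difference between the tissues was itself tested, as the tumour fold change minus the LP fold change. It was called for 188 genes (1.46%), 146 above 0 and 42 below, and 1642 had an unadjusted p under 0.05. Of the 188, 137 were also called in LP, 120 of them among the genes higher in MHCIIhi. The difference contains the LP fold change with its sign reversed, so genes with a wide LP fold change are favoured in both calls. This overlap is thus in part built in. The same applies to tumour fold changes nearer 0 among genes chosen by their LP fold change. Dcstamp, -4.60 in LP, was 0.25 ± 0.38 in tumours, a difference of 4.84 (adjusted p = 0.00015). Il1r2 was at -4.07 and -0.48 (difference 3.59, adjusted p = 0.00274), Pdcd1lg2 at -4.77 and -0.98 (3.79, adjusted p = 0.00931), and Itgax at -3.44 and -0.60 (2.84, adjusted p = 0.0113). These 4 fold changes were nearer 0 in tumours. Itgax is not among the 30 genes with the largest LP fold changes under the naming rule. Of those 30, the difference between tissues was called for only 4, Dcstamp, Il1r2, Pdcd1lg2 and Gpr171. The difference was not called for Ifit1bl1, Klrb1b, Snx20, Aqp1, Lyve1 or Serpinb6a, for example (adjusted p = 0.0940 to 0.495). An uncalled difference does not show that the LP fold change was kept in tumours. Aqp1 was hardly detected there, with means of -5.96 in MHCIIhi and -5.76 in MHCIIlow. Lyve1 was as low, at -7.33 and -6.62, so the tumour fold changes of both genes rest on very low values. Il1b (-2.02 and -0.35), Havcr2 (-1.57 and -0.35), Mmp13 (-2.30 and -0.13), Psap (-1.38 and -0.26) and Bhlhe40 (-1.44 and -0.37) also differed between tissues (adjusted p = 0.00355 to 0.0428).

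A set of 5 genes was called in both tissues in opposite directions, higher in MHCIIhi in LP and in MHCIIlow in tumours. Ltb4r1 was at -2.31 in LP and 1.73 in tumours (difference 4.04, adjusted p = 0.000387). Slc16a3 was at -1.01 and 0.91 (1.92, adjusted p = 0.000616), Acot7, an acyl-CoA thioesterase, at -0.92 and 1.5 (2.42, adjusted p = 0.00148) and Adam8, a membrane metalloprotease, at -0.85 and 1.28 (2.13, adjusted p = 0.00355). The predicted gene Gm12854 (-2.36 and 4.16) had 0 to 6 reads in the LP libraries and shares 76.9% of its 51-base stretches with S100a11 and another gene model. The LP calls of Acot7, Adam8 and Gm12854 were lost with the block (0.0598, 0.126 and 0.151) and without MHCIIhi III, MHCIIhi IV or MHCIIlow II (up to 0.105, 0.210 and 0.168), Acot7 and Adam8 also without MHCIIhi V and Acot7 and Gm12854 also without MHCIIlow IV, while those of Ltb4r1 and Slc16a3 held with any library left out. Adam8 and Gm12854 also lost them with only the 6 LP libraries (0.131 and 0.195), and all 3 with the 12 macrophage libraries (0.0508 to 0.108). Adam8 was lost after quantile normalization, and Gm12854 with both added constants and with voom (0.180). Acot7, Adam8 and Gm12854 were named after their values were seen. Glycolysis genes, 3 of which were called higher in MHCIIhi in LP, had 8 of 25 called higher in MHCIIlow in tumours (median 0.51), and the difference between tissues was called for 8 of them. The resident macrophage list had 0 of 28 called in tumours (median 0.43).

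**Figure D5:**
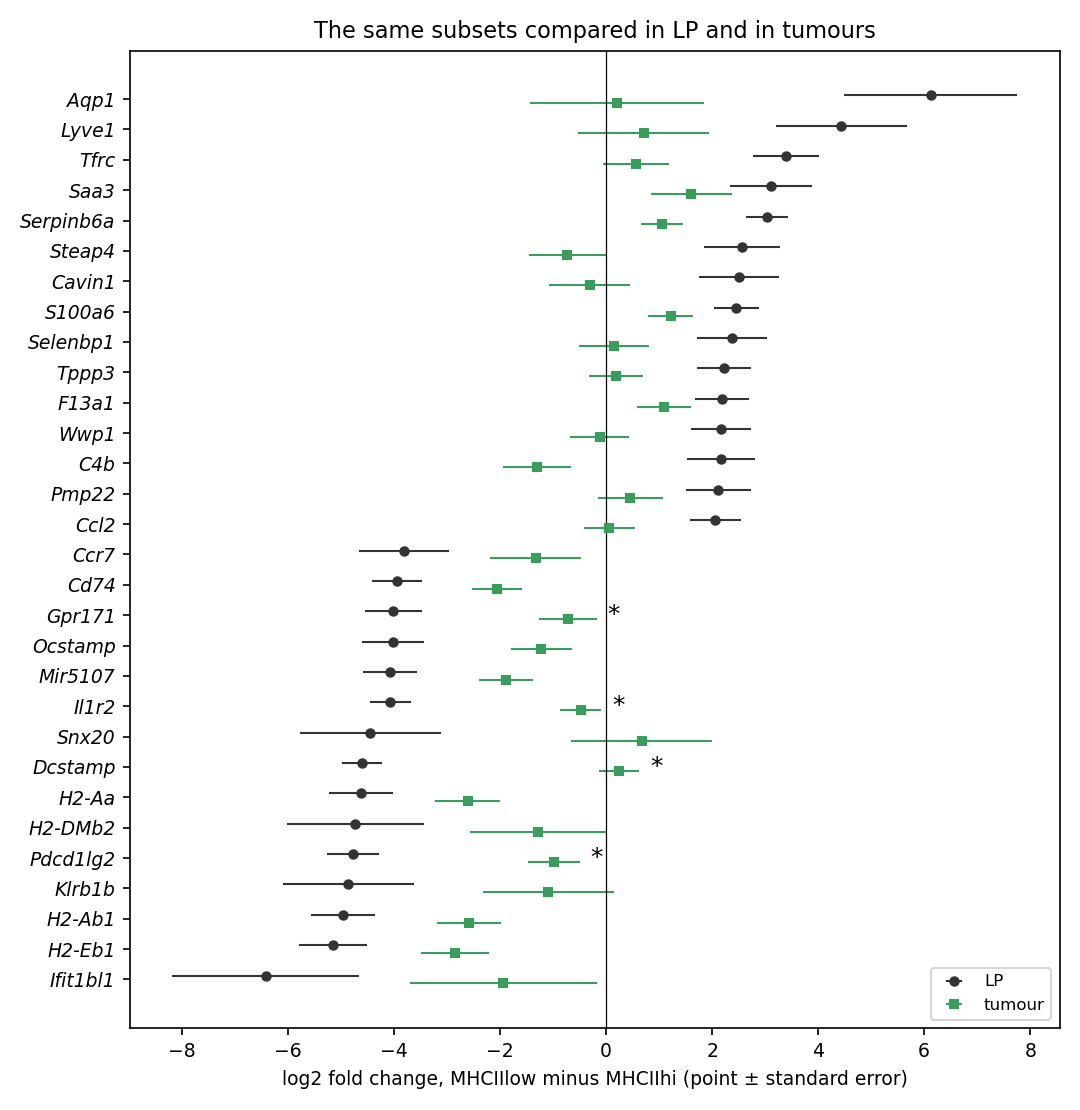
Log2 fold change (MHCIIlow minus MHCIIhi) with its standard error in LP (black circles) and in tumours (green squares) for the 30 genes with the largest fold changes in LP under the naming rule; an asterisk marks an adjusted p under 0.05 for the difference between the tissues. Gpr171, Il1r2, Dcstamp and Pdcd1lg2 carry one, with tumour values between -0.98 and 0.25. Aqp1 and Lyve1 had group means of -5.76 log2 RPKM or lower in tumours, so their green squares rest on very low values.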

How the data were processed

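Macrophages were sorted by flow cytometry and their RNA was amplified with a modified SMART-Seq2 protocol and sequenced as paired ends without strand. Per the labels and the methods of the study, the authors aligned reads with STAR 2.3 to mm10 (GRCm38), counted them with featureCounts 1.5 over GENCODE genes, removed genes with few reads in every population and deposited log2 RPKM for 17301 genes. Whole reads could be recovered for 100% of the 415224 values (tolerance 0.001), with a prior of 0.25 reads. Columns of other samples left unused numbered 0. The 12878 genes that reached a mean of 1 RPKM in some group were fitted on the deposited log2 RPKM with limma 3.58.1 (R 4.3.3, trended empirical Bayes) over all 24 libraries and 8 groups, with Benjamini-Hochberg adjustment over all tested genes and a threshold of 0.05. The pipeline was tested on simulated data.

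Named genes were, in each direction, the 15 with the largest fold change among called genes with no overlap and a mean RPKM of at least 10 in the higher group (predicted genes, pseudogenes and antigen receptor segments left out). Up to 6 called members of each biology list, its most abundant uncalled members, the most abundant markers of each other cell type and the genes of sorted proteins were added. The genes and lists were chosen with earlier results of these data known, and genes outside the rule are said to have been named after their values were seen. A few genes that the rule took are not reported here. Stretches shared between genes are windows of 51 bases in exons that also occur in, or lie opposite, another gene. Lower bounds take 3 reads per library as the floor and cover counting error only.

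The labels call the pool number a donor, and the numbers III and IV occur in both populations. The deviations of same-numbered libraries from their group means correlated at 0.027 (III) and -0.066 (IV), beside -0.043 to 0.080 for other pairs. In the fit with the pool number within tissue as a fixed block over 24 libraries, MHCIIlow II, the only LP library of its number, adds nothing to the LP contrast, while MHCIIhi V enters through the monocyte and neutrophil libraries of its number. A random block was also fitted. Other alternatives were log2(RPKM + 1), log2(RPKM + 0.1), no filter, a minimum of 5 RPKM, a filter on the LP macrophage groups, quantile normalization, median centring, the 6 LP or 12 macrophage libraries alone, array weights, voom on recovered reads and each LP macrophage library left out.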

Additional observations from a re-analysis of the deposited data

Results flagged for a closer look

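Among the genes taken by the naming rule or added later, 36 are listed here. For these the contrast of MHCIIlow with MHCIIhi differed between LP and tumours by the interaction term of the same limma fit (adjusted p under 0.05). Over all tested genes 188 passed (1.46%). Many named genes were chosen for a wide LP fold change, which enters the difference with its sign reversed. The 36 are therefore not a sample to set beside that share. Each value is the tumour fold change minus the LP fold change on the log2 scale. Of genes higher in MHCIIhi in LP, those with the widest gaps were Dcstamp (4.84), Ltb4r1 (4.04), Mmp12 (3.80), Pdcd1lg2 (3.79), Runx2 (3.72), Il1r2 (3.59) and Gpr171 (3.29). Itgax (2.84), Ms4a4c (2.82), Il7r (2.78), Acot7 (2.42), Sema4d (2.33), Mmp14 (2.20), Mmp13 (2.17), Adam8 (2.13) and C3 (2.10) followed. Smaller gaps belonged to Trem1 (1.99), Slc16a3 (1.92), Slc2a6 (1.70), Il1b (1.67), Fpr2 (1.36), Pfkp (1.26), Clec4e (1.25), Havcr2 (1.22), Runx3 (1.20), Psap (1.12), Bhlhe40 (1.07), Selplg (1.03), F11r (0.97) and Scarb2 (0.92). Gm12854 (6.52) and Flt1 (5.87), a receptor for vascular growth factors, are genes of few reads in LP, and Flt1 was not called in LP. Pkm, a glycolytic enzyme not called in LP, differed by 1.10. The difference was below 0 for Cd83 (-1.51), mt-Nd4 (-1.20) and Selenop (-1.17), of which Cd83 and Selenop were not called in LP. No cause of these differences was tested.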

How the results depend on the processing

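Counts of called genes moved more than the genes named as holding throughout. Genes higher in MHCIIlow numbered 274, and 738 with log2(RPKM + 1), 429 with log2(RPKM + 0.1), 510 after quantile normalization, 633 with array weights, 742 with voom on recovered reads and 108 to 280 with 1 library left out. Genes higher in MHCIIhi numbered 717, and 1283 with array weights, 1099 with voom and 409 to 735 with 1 library left out. The difference between tissues was called for 188 genes, and for 473 with log2(RPKM + 1), 433 with array weights, 540 with voom and 83 to 311 with 1 LP library left out. The cause was not tested. Of the 240 genes that the naming rule and later additions took, 148 were called, and 48 of these kept the call under every alternative run. None of the 240 reversed a called direction, and 23 uncalled genes changed sign while uncalled. Calls were lost for 71 genes with only the 6 LP libraries, 40 with the 12 macrophage libraries, 62 without MHCIIlow II, 16 without MHCIIlow III, 40 without MHCIIlow IV and 44 to 56 without 1 MHCIIhi library, and for 0 to 8 under each change of scale, filter, normalization or weights. Of the uncalled genes 34 gained a call in at least 1 alternative.

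With the pool number as a fixed replicate block, 156 genes were higher in MHCIIlow, 546 in MHCIIhi, and 191 differed between tissues. The block took the call from 44 of these 148 genes. Those in the text are given with the blocked value, and it changed no other call among the named genes that had one. With a random replicate block the counts were 295, 754 and 229, and none of the 148 lost the call. The MHCIIlow libraries III and IV, the shallowest of the 6, limit what can be said of genes with few reads.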
